A study of Mus musculus with 8 samples.

Results

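The genes described here encode accessory and transport proteins that move sodium and calcium across the heart muscle cell membrane: the sodium pump beta subunits Atp1b1, Atp1b2 and Atp1b3, the pump regulator Fxyd1, the sodium-calcium exchanger Slc8a1 and the plasma membrane calcium pumps Atp2b1 and Atp2b4. They were chosen by gene symbol from the table of read counts, which held 7 of the 7 among 23282 genes. The hearts came from male FVB/N mice at 4 months of age and were profiled by RNA-seq. The AE3-null group (4 libraries) lacked normal Slc4a3, the gene of the chloride/bicarbonate exchanger AE3, and the wild-type group (4 libraries) was of the same strain. The design text gives 4 mice of each genotype, the labels do not tie libraries to animals otherwise, and p-values therefore measure the spread between these libraries. The labels do not describe the targeted allele.

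The sodium pump uses ATP to export sodium and import potassium. Its alpha subunit carries out the transport, its beta subunit brings the alpha subunit to the membrane in a stable form, and FXYD proteins tune its activity. The sodium gradient it builds drives the sodium-calcium exchanger, which in heart muscle removes the calcium that entered during a beat. Plasma membrane calcium pumps also export calcium, with calmodulin as their activator, and are known to contribute little to bulk calcium removal in heart muscle cells.

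Total counts ranged from 9133628 to 27078351 in AE3-null libraries and from 14875281 to 19080858 in wild-type libraries. Slc4a3 averaged 32.9 ± 1.26 CPM in AE3-null hearts and 384 ± 4.60 CPM in wild-type hearts (SD, n = 4 each), so every library matched its label; CPM are counts relative to the TMM-scaled library size. On the second principal component wild-type replicate 3 lay apart, at -22.6 against -1.48 to 8.89 in the other libraries. The summed level of 8 heart muscle cell markers was 79291 to 85818 CPM in AE3-null and 79357 to 86671 CPM in wild-type libraries, and 34189 to 35315 CPM in AE3-null and 32915 to 35422 CPM in wild-type libraries without Myh6; Tnnt2 alone of the 8 was called, and rose (log2 0.12, edgeR adjusted p 0.0423). For comparison with the counts of called markers, edgeR called 3.16% of all tested genes higher and 3.31% lower in AE3-null hearts. Of the 8 atrial markers 8 rose, and their sum was 4046 to 4667 CPM in AE3-null against 3037 to 3569 CPM in wild-type libraries. Of the 12 endothelial markers 5 fell, with sums of 1698 to 1752 CPM in AE3-null and 1892 to 2097 CPM in wild-type libraries. Of the 10 smooth muscle and pericyte markers 2 rose, Abcc9 and Myh11, and these alone did not overlap between genotypes. Abcc9 was the most abundant of the 10, at 695 to 754 CPM in AE3-null and 628 to 662 CPM in wild-type libraries. The sums of the 10, of which Abcc9 is a large part, were 1572 to 1679 CPM in AE3-null and 1470 to 1527 CPM in wild-type libraries. For red blood cell markers they were 1672 to 2321 CPM in AE3-null and 2413 to 3840 CPM in wild-type libraries (0 of 4 tested called by edgeR, 3 at an unadjusted p under 0.05, 3 called by DESeq2 and 0 by limma voom), with Hba-a1 and Hba-a2, which held the same values in all 8 libraries, counted once. Of the 6 tested Schwann cell and neuron markers Dbh alone was called, and rose (log2 0.82). Dbh had 6.32 to 7.58 CPM in AE3-null and 3.32 to 4.72 CPM in wild-type libraries, and alone of the 6 did not overlap. The sums of the 6 were 27.8 to 30.6 CPM in AE3-null and 22.7 to 26.0 CPM in wild-type libraries. Those of fibroblast markers (3 of 10 fell) overlapped between genotypes. Of 8 tested skeletal muscle markers Myl1 alone was called, and fell (log2 -2.21). The sums of the 8 were 2182 to 2341 CPM in AE3-null and 2394 to 2573 CPM in wild-type libraries. Myl1 and Ckm, which is a heart muscle marker too, were the 2 markers without overlap between genotypes. Without these 2 the sums overlapped, at 200.3 to 226 CPM in AE3-null and 199 to 231 CPM in wild-type libraries. In a whole heart, fewer cells of a type and less RNA per cell cannot be told apart.

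No difference between AE3-null and wild-type hearts passed the test in any of the 7 pump and exchanger genes, and their measured changes were small. All 7 passed the filter on low counts, and edgeR's quasi-likelihood test with Benjamini-Hochberg adjustment over 14136 tested genes called 0 of them at an adjusted p under 0.05, against 6.47% of all tested genes (3.16% higher and 3.31% lower in AE3-null hearts). At an unadjusted p under 0.05 the count was also 0 of 7, against 21% of tested genes. DESeq2 and limma voom called 0 of 7 too, against 7.1% and 6.78% of their tested genes. In 0 of the 7 did the 4 AE3-null libraries lie wholly above or below the 4 wild-type libraries, which held for 12.2% of tested genes. The log2 fold changes, AE3-null over wild type, lay between -0.049 and 0.055, with a median of -0.021 against -0.0018 over all tested genes. Their median size was 0.028 against 0.088 over all tested genes, a comparison not matched for level. Of all tested genes 65.7% had a change larger in size than 0.055, against 55.2% of those averaging 25 CPM or more, as the 7 genes did. Every 95% interval of a change in the 7 genes held 0, and the bounds of these intervals lay between -9.79% and 14.1%.

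**Figure D1:**
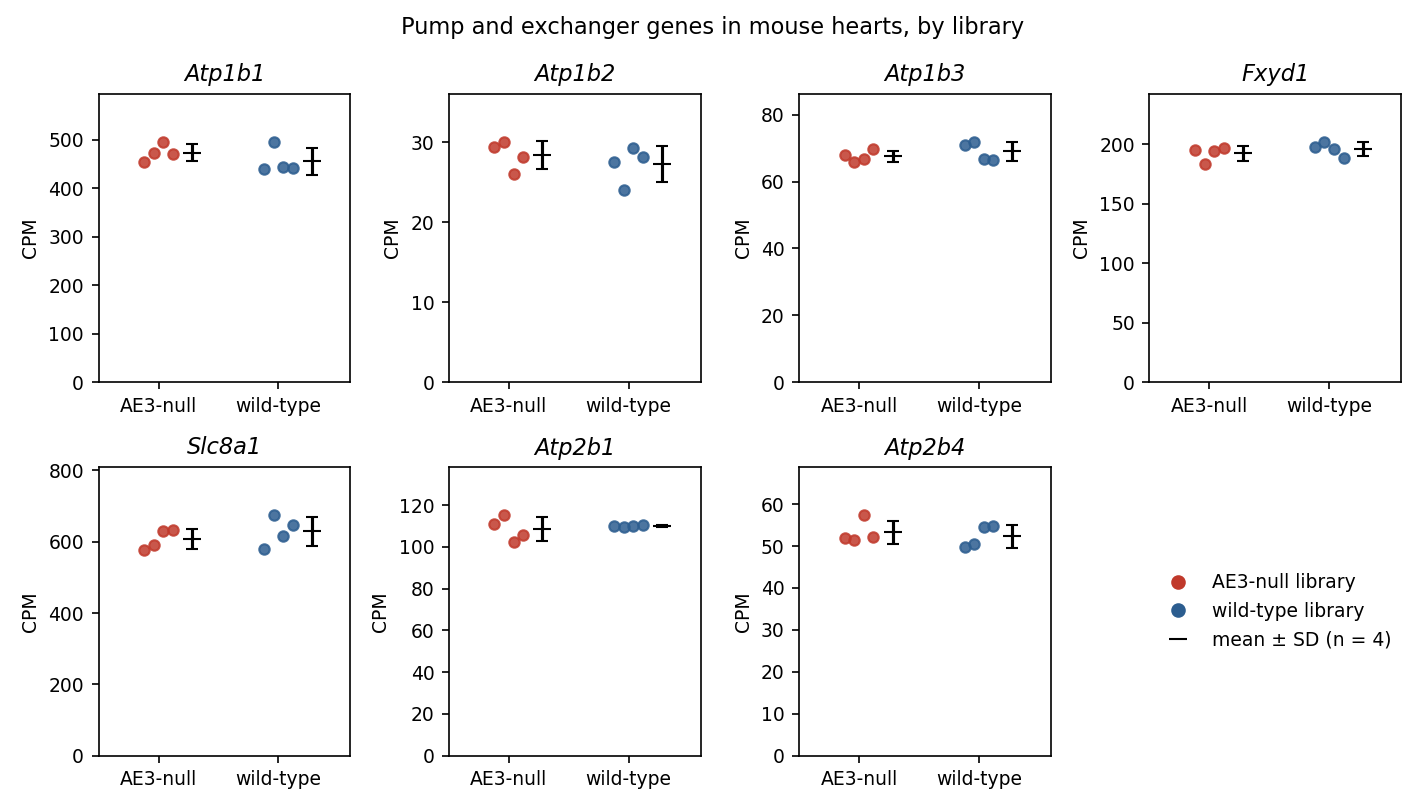
Each panel gives 1 gene, with CPM on the vertical axis from 0, a dot per library (AE3-null left, wild-type right) and the mean ± SD over 4 libraries beside the dots. The AE3-null and wild-type dots overlap in all 7 panels, and Slc8a1 has the highest CPM, between 576 and 674.

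Promoter sequences in the RefSeq promoter table (build GRCm38.p6, 250 bases before to 50 after an annotated start) were found for 6 of the 7 genes. The promoters of the most abundant gene of each kind (beta subunit, exchanger, calcium pump) are given because they differ in base composition. They are written in lower case with matches to a GC box, a TATA box or a GATA site on either strand in capitals, and overlapping GC boxes run together. The Atp1b1 promoter is at chr1:164458306-164458605 on the minus strand, that of Slc8a1 at chr17:81738338-81738637 on the minus strand and that of Atp2b1, the more upstream of 2 in the table, at chr10:98914392-98914691 on the plus strand.
Atp1b1: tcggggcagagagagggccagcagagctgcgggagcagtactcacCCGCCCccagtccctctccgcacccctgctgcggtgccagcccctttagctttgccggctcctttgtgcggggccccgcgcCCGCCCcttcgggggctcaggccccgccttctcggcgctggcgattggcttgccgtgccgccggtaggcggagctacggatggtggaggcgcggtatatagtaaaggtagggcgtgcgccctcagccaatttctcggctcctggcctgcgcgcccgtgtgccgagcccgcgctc
Slc8a1: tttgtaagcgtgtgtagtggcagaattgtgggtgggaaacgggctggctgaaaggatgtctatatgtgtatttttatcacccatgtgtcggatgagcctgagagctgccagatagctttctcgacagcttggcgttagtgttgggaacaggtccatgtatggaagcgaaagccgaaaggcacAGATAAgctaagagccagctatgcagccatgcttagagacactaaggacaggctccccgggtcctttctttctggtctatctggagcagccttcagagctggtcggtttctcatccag
Atp2b1: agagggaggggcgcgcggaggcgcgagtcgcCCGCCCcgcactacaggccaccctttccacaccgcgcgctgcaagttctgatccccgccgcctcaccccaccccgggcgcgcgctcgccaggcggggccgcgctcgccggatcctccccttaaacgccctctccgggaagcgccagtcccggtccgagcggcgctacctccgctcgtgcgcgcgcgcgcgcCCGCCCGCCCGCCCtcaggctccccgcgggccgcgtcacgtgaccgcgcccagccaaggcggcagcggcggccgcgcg
The G and C content of these windows was 71.0% for Atp1b1, 50.7% for Slc8a1 and 79.3% for Atp2b1, against a median of 52.7% over 32851 promoters. GC boxes, the letters GGGCGG that Sp1 factors bind, numbered 2 in Atp1b1, 4 in Atp2b1 and 0 in Slc8a1, and 35.7% of all promoters held at least 1. Slc8a1 held 1 GATA site (AGATAA), which 11.2% of all promoters held. The letters TATAAA, the only form of the TATA box searched, were not found in these 3 windows, and 13.6% of all promoters held them. Variant forms were not searched, and the Atp1b1 window holds the letters TATATA, so a TATA box of another form is not excluded. The counts sum reads over a whole gene, so they do not say which start site was used in these hearts.

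Among the beta subunits, Atp1b1 is the main form of heart muscle. It had 454, 473, 496 and 471 CPM in AE3-null replicates 1 to 4, against 440, 497, 444 and 442 CPM in wild-type replicates 1 to 4. Wild-type replicate 2 was as high as the highest AE3-null library, and the other 3 wild-type libraries lay below all AE3-null libraries. The means were 473 ± 17.3 CPM in AE3-null and 456 ± 27.3 CPM in wild-type hearts (SD, n = 4 each), and the change of 3.87% (95% interval -2.39% to 10.5%; log2 0.055, SE 0.042) had an edgeR adjusted p of 0.501. Without wild-type replicate 2 the log2 fold change was 0.10 (edgeR adjusted p 0.157).

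Atp1b2, first known as an adhesion molecule on glia, was the least abundant beta subunit. It had 29.4, 30.1, 26.0 and 28.2 CPM in AE3-null replicates 1 to 4, against 27.6, 24.1, 29.3 and 28.2 CPM in wild-type replicates 1 to 4. The ranges overlapped over most of their width. The change was 3.70% (interval -5.78% to 14.1%; log2 0.052, SE 0.065; edgeR adjusted p 0.712), the widest interval of the 7 genes, with 279 to 765 reads per library behind the values. Without wild-type replicate 2 the log2 fold change was 0.00044 (edgeR adjusted p 0.999).

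Atp1b3, a beta subunit found in many tissues, had 68.1, 65.8, 66.8 and 69.7 CPM in AE3-null replicates 1 to 4, against 70.9, 72.0, 66.7 and 66.5 CPM in wild-type replicates 1 to 4. Both the lowest and the highest values of the genotypes lay within a few CPM of each other. The change was -1.91% (interval -7.97% to 4.55%; log2 -0.028, SE 0.043; edgeR adjusted p 0.776).

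Scaled by exon length, Atp1b1 made up 81.3% ± 0.837 of the 3 beta subunits in AE3-null hearts and 80.6% ± 0.854 in wild-type hearts (SD, n = 4 each). Atp1b3 made up 15.0% ± 0.616 in AE3-null and 15.8% ± 0.559 in wild-type hearts, and Atp1b2 3.69% ± 0.312 in AE3-null and 3.65% ± 0.455 in wild-type hearts. The genotypes' ranges overlapped for each of the 3 shares, and no test was made of them.

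**Figure D2:**
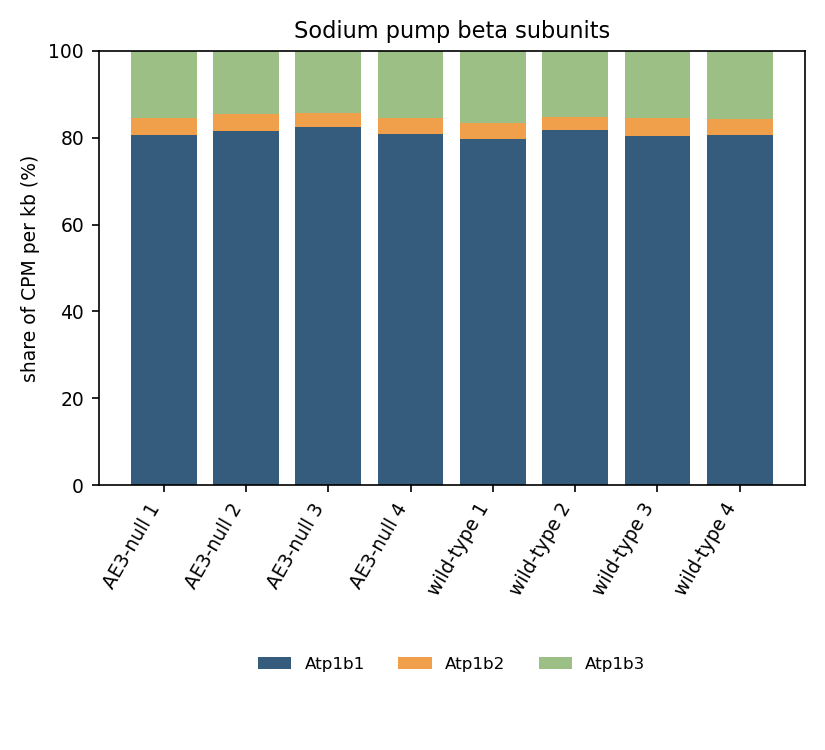
Stacked bars give, for each library (AE3-null left, wild-type right), the percent share of the 3 beta subunit genes in their summed CPM per kilobase of exon. Atp1b1 makes up 79.7% to 82.4% in every library.

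Fxyd1 encodes phospholemman, which restrains the sodium pump of heart muscle until it is phosphorylated. It had 195, 183, 194 and 196 CPM in AE3-null replicates 1 to 4, against 197, 202, 196 and 189 CPM in wild-type replicates 1 to 4. AE3-null replicate 2 was the lowest and wild-type replicate 2 the highest, and the other 6 libraries lay between them. The change was -1.80% (interval -6.93% to 3.63%; log2 -0.026, SE 0.037; edgeR adjusted p 0.749), the narrowest interval of the 7 genes.

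Slc8a1 encodes NCX1, the sodium-calcium exchanger of heart muscle. It had 576, 591, 631 and 633 CPM in AE3-null replicates 1 to 4, against 578, 674, 616 and 647 CPM in wild-type replicates 1 to 4. The lowest value of each genotype was nearly the same, and the 2 highest libraries were wild-type. The means were 608 ± 29.0 CPM in AE3-null and 629 ± 41.4 CPM in wild-type hearts (SD, n = 4 each), and the change was -3.32% (interval -9.79% to 3.61%; log2 -0.049, SE 0.047; edgeR adjusted p 0.608). Without wild-type replicate 2 it was -0.012 on the log2 scale and without wild-type replicate 1 -0.086 (edgeR adjusted p 0.928 and 0.323).

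Of the calcium pumps, Atp2b1 encodes PMCA1, the form found in most cells. It had 111, 115, 102 and 106 CPM in AE3-null replicates 1 to 4, against 110, 110, 110 and 111 CPM in wild-type replicates 1 to 4. The wild-type libraries lay within the AE3-null range and were closer together, with a coefficient of variation of 5.21% in AE3-null and 0.361% in wild-type hearts. This difference in spread was not tested. Wild-type libraries held 1609 to 2067 reads of the gene, and the sampling of reads alone is expected to spread such counts by more than 0.361%. The change was -1.42% (interval -7.09% to 4.60%; log2 -0.021, SE 0.040; edgeR adjusted p 0.8292).

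Atp2b4 encodes PMCA4, known in heart muscle for its part in local signalling. It had 51.9, 51.5, 57.4 and 52.3 CPM in AE3-null replicates 1 to 4, against 49.7, 50.4, 54.5 and 54.9 CPM in wild-type replicates 1 to 4. Apart from AE3-null replicate 3, the AE3-null libraries lay within the wild-type range. The change was 1.74% (interval -5.72% to 9.79%; log2 0.025, SE 0.052; edgeR adjusted p 0.841).

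The coefficient of variation of the 7 genes was 2.49% to 6.28% in AE3-null hearts and 0.361% to 8.25% in wild-type hearts. Over the 6307 tested genes averaging 25 CPM or more the median coefficient of variation was 4.07% in AE3-null and 4.73% in wild-type hearts. Of the same 6307 genes 55.2% had a change larger in size than the largest of the 7.

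Per kilobase of annotated exon, the order of levels was Atp1b1, Fxyd1, Slc8a1, Atp1b3, Atp2b1, Atp1b2 and Atp2b4 in both genotypes. Atp1b1 stood at 154 ± 5.62 in AE3-null and 148 ± 8.86 CPM per kb in wild-type hearts (SD, n = 4 each), and Atp2b4 at 4.35 ± 0.226 in AE3-null and 4.28 ± 0.222 CPM per kb in wild-type hearts. Neighbours in this order had separate ranges in each genotype, except Atp2b1 and Atp1b2 in AE3-null hearts, at 6.73 to 7.57 and 6.36 to 7.36 CPM per kb. Slc8a1 and Atp1b3 were close, at 30.6 to 33.7 and 27.6 to 29.2 CPM per kb in AE3-null hearts, and at 30.7 to 35.9 and 27.8 to 30.1 CPM per kb in wild-type hearts. The order depends on the length used: per kilobase of coding sequence Fxyd1 came before Atp1b1, at 696 ± 22.1 and 519 ± 19.0 CPM per coding kb in AE3-null hearts, and Atp1b2 before Atp2b1. Lengths were taken from the GENCODE annotation of GRCm38, and the transcripts used in these hearts were not determined.

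**Figure D3:**
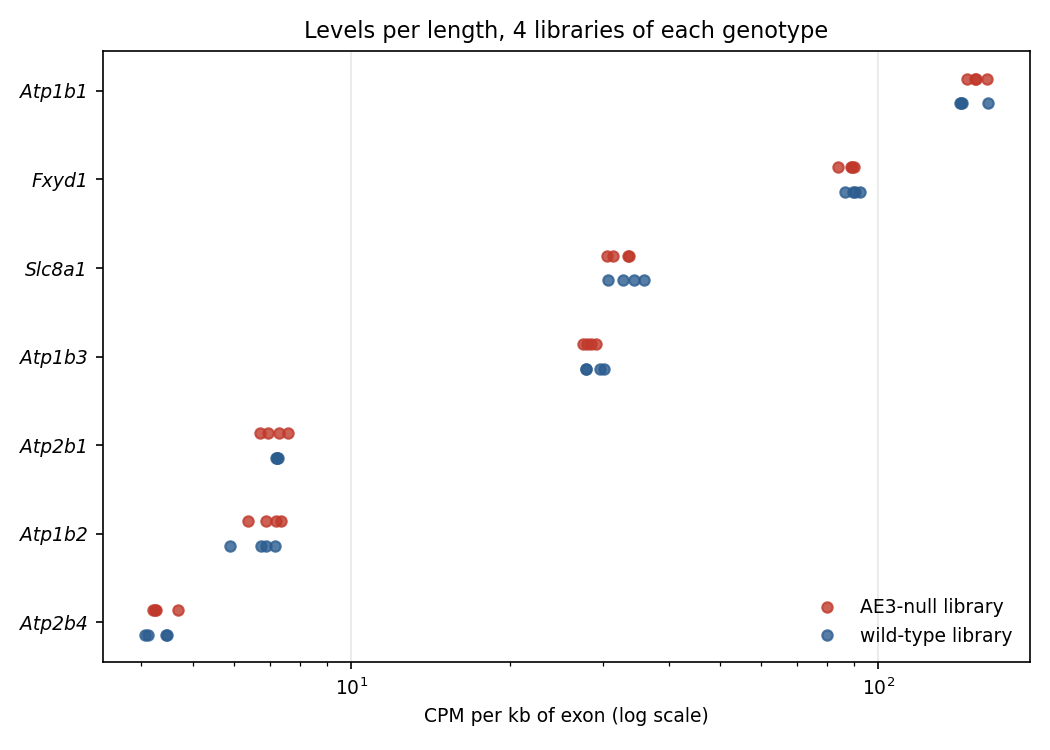
CPM per kilobase of exon on a log axis for the 7 genes, with 4 AE3-null libraries above 4 wild-type libraries for each gene. The AE3-null and wild-type ranges overlap for each of the 7 genes, from Atp1b1 at the top to Atp2b4 at the bottom.

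Of 13 other sodium pump and FXYD genes described here 9 passed the filter on low counts, of which 0 rose and 2 fell, with a median log2 fold change of -0.19. Of all tested genes 3.16% rose and 3.31% fell, shares that stand beside the counts of this list and of the lists below. Fxyd5 encodes dysadherin, a FXYD protein known from epithelia and endothelium, and had 15.1, 16.3, 16.7 and 15.1 CPM in AE3-null replicates 1 to 4, against 21.4, 19.6, 18.9 and 21.2 CPM in wild-type replicates 1 to 4. It fell by 22.6% (interval -30.0% to -14.3%; log2 -0.37, SE 0.069; edgeR adjusted p 0.00433), with every AE3-null library below every wild-type library. The summed endothelial markers given above were lower in AE3-null libraries as well, and their part in this result was not tested. Atp1a4, an alpha subunit known from sperm, averaged 21.4 ± 0.740 CPM in AE3-null and 25.7 ± 0.979 CPM in wild-type hearts (SD, n = 4 each; log2 -0.27, SE 0.056; edgeR adjusted p 0.00951). Alpha subunit genes are paralogs that may share reads, and whether such reads are part of the Atp1a4 count was not tested.

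Of 10 other sodium-calcium exchanger and plasma membrane calcium pump genes 9 passed the filter, of which 1 rose and 1 fell (median log2 fold change -0.0029). Slc24a2, a potassium-dependent sodium-calcium exchanger known from retinal cones and brain, had 14.7, 14.2, 15.0 and 14.2 CPM in AE3-null replicates 1 to 4, against 10.01, 10.6, 7.68 and 10.1 CPM in wild-type replicates 1 to 4. It rose by 51.2% (interval 32.3% to 72.9%; log2 0.60, SE 0.091; edgeR adjusted p 0.00105), with all AE3-null libraries above all wild-type libraries. It kept its call in all 17 alternative fits. Its level per kilobase of exon was 1.19 ± 0.0315 in AE3-null and 0.786 ± 0.108 CPM per kb in wild-type hearts (SD, n = 4 each), while that of Slc8a1 was 32.3 ± 1.54 in AE3-null and 33.4 ± 2.20 CPM per kb in wild-type hearts. Atp2b3, a calcium pump known from brain, was low, with 7 to 21 reads per library and 0.561 ± 0.179 CPM in AE3-null against 1.11 ± 0.174 CPM in wild-type hearts (SD, n = 4 each). It fell by 1.08 on the log2 scale (SE 0.289; edgeR adjusted p 0.0343), and DESeq2 gave it no adjusted p. Its call was lost with edgeR without AE3-null replicate 1 (log2 -1.21, adjusted p 0.0549), 3 (-1.08, 0.0761) or 4 (-0.84, 0.143), and without wild-type replicate 1 (-1.08, 0.0720) or 4 (-1.07, 0.0935).

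Of 9 genes for partners of the plasma membrane calcium pumps 8 passed the filter, of which 0 rose and 1 fell (median log2 fold change 0.037). The fallen gene was Bsg, which encodes basigin, a membrane glycoprotein that serves as a subunit of these pumps and of lactate transporters. Bsg had 1046, 988, 1019 and 1059 CPM in AE3-null replicates 1 to 4, against 1089, 1196, 1150 and 1134 CPM in wild-type replicates 1 to 4, with no overlap. It fell by 9.99% (interval -14.6% to -5.15%; log2 -0.15, SE 0.036; edgeR adjusted p 0.0181). The call was lost with edgeR without AE3-null replicate 2 (log2 -0.13, adjusted p 0.0700) or 3 (-0.15, 0.0609), and without wild-type replicate 2 (-0.13, 0.0639) or 4 (-0.15, 0.0520).

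Among 13 kinase, phosphatase and palmitoylation genes that act on phospholemman, edgeR called 0, and DESeq2 and limma voom also called 0. At an unadjusted edgeR p under 0.05 the count was 5 of 13, against 21% of all tested genes. The median log2 fold change of the 13 genes was 0.040. Prkaca, the main catalytic subunit of protein kinase A, averaged 242 ± 3.39 CPM in AE3-null and 222 ± 13.6 CPM in wild-type hearts (SD, n = 4 each; log2 0.12, SE 0.041; edgeR adjusted p 0.0873), and leaving out wild-type replicate 3 brought it past the threshold (edgeR adjusted p 0.00549, log2 0.17). Prkca, protein kinase C alpha, averaged 49.8 ± 2.84 CPM in AE3-null and 45.3 ± 0.909 CPM in wild-type hearts (SD, n = 4 each; log2 0.14, SE 0.050; edgeR adjusted p 0.121).

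Of 11 genes for other routes of sodium entry and calcium cycling 11 passed the filter, of which 2 rose and 1 fell (median log2 fold change -0.039). The sodium-bicarbonate cotransporter Slc4a4 had 52.6, 57.6, 61.6 and 61.4 CPM in AE3-null replicates 1 to 4, against 72.6, 74.7, 66.6 and 77.4 CPM in wild-type replicates 1 to 4, without overlap. It fell by 19.9% (interval -26.5% to -12.8%; edgeR adjusted p 0.0037). Pln and Sln, small inhibitors of the sarcoplasmic reticulum calcium pump, rose by 10.2% (interval 5.37% to 15.2%) and 23.7% (interval 15.6% to 32.3%), with edgeR adjusted p-values of 0.0116 and 0.000876. Sln is an atrial marker too and is part of the atrial sum given above, which was higher in AE3-null libraries. The part of atrial tissue in the rise of Sln was not tested.

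Of 6 scaffold genes 2 rose and 0 fell (median log2 fold change 0.10), against 3.16% and 3.31% of all tested genes. Cav3, the caveolin of muscle, averaged 64.6 ± 2.06 CPM in AE3-null and 56.8 ± 1.02 CPM in wild-type hearts (SD, n = 4 each; log2 0.18, SE 0.043; edgeR adjusted p 0.0172). Ank2, the ankyrin that anchors the sodium pump and the exchanger in heart muscle, averaged 173 ± 7.68 CPM in AE3-null and 157 ± 3.31 CPM in wild-type hearts (SD, n = 4 each; log2 0.14, SE 0.039; edgeR adjusted p 0.0385). The call of Cav3 was lost with edgeR without AE3-null replicate 3 (log2 0.17, adjusted p 0.0601) or 4 (0.19, 0.0528) and without wild-type replicate 4 (0.17, 0.0666). That of Ank2 was lost without AE3-null replicate 1 (0.14, 0.0840), 3 (0.14, 0.0813) or 4 (0.11, 0.149) and without wild-type replicate 1 (0.14, 0.0959), 2 (0.13, 0.0885) or 4 (0.14, 0.106), and in a fit blocked by replicate number (edgeR adjusted p 0.0535).

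**Figure D4:**
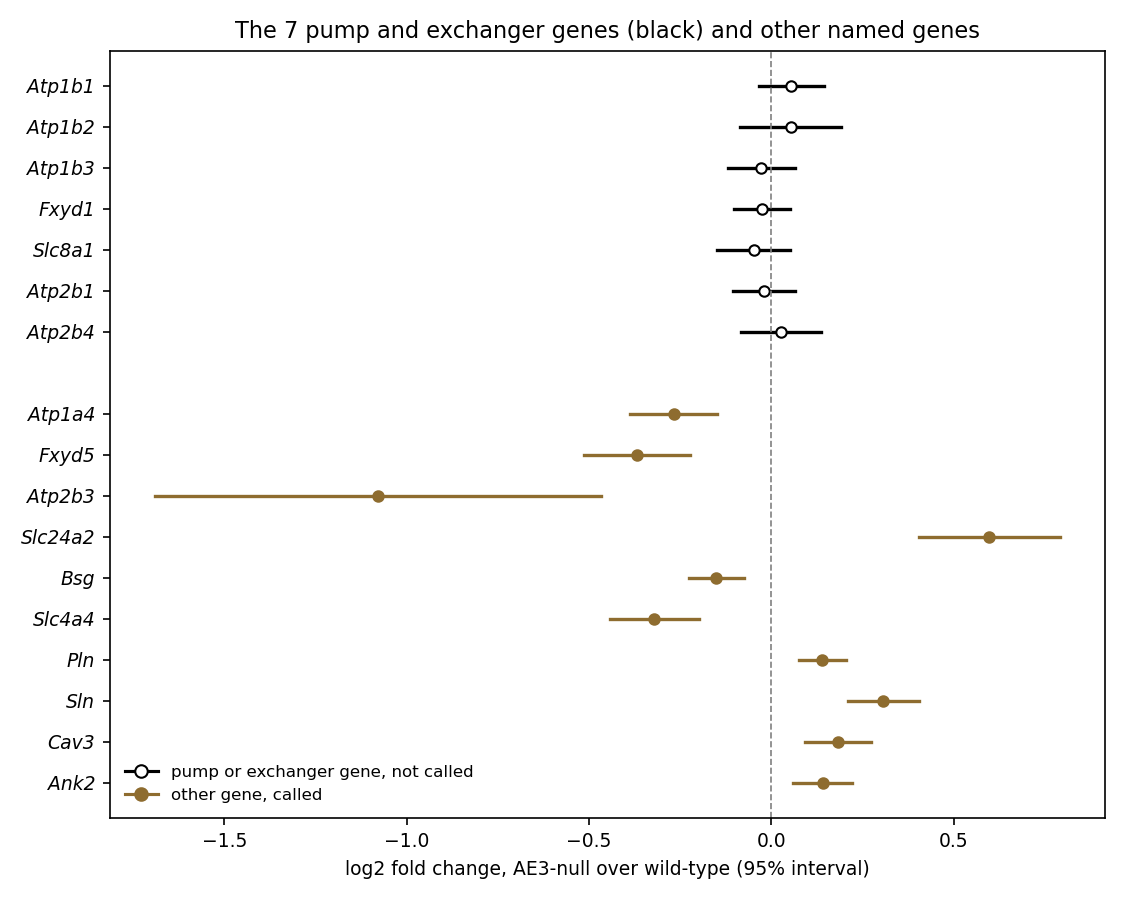
Points give the log2 fold change, AE3-null over wild type, and lines its 95% interval, for the 7 pump and exchanger genes in black and for the called pathway genes below them. The intervals of the 7 genes all cross 0 and stay between -0.15 and 0.19, while the filled points of called genes run from -1.08 for Atp2b3 to 0.60 for Slc24a2.

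The 7 genes stayed uncalled under each setting tried. Over 17 alternative fits for each gene, 119 in all, 0 gave an adjusted p under 0.05, and the smallest was 0.157, for Atp1b1 without wild-type replicate 2. The log2 fold changes stayed between -0.086 and 0.10.

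**Figure D5:**
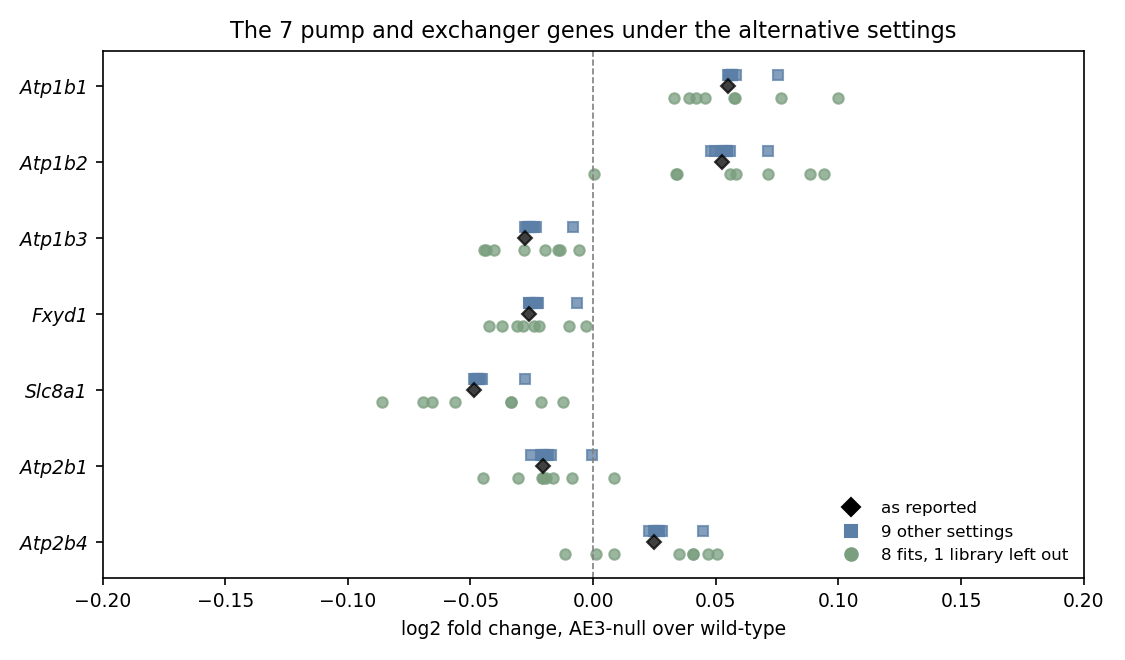
Log2 fold change of each of the 7 genes, AE3-null over wild type, as reported (diamond), under 9 other settings (squares) and with 1 library left out (circles). The points lie between -0.086 for Slc8a1 and 0.10 for Atp1b1.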

How the data were processed

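The authors deposited raw counts of reads for each gene in each library. Their processing notes name bcl2fastq (CASAVA 1.8), TopHat, the build mm9 and DESeq. How reads were counted, with which annotation and strand setting, is not given in the sources used here. Where exons overlap a gene on the other strand (in GENCODE, up to 383 bases of Atp1b1 with Nme7 and 296 of Slc8a1 with a clone model), reads of the pair can therefore not be told apart. Of 23282 Entrez numbers, 23185 were matched to symbols in RefSeq (GRCm38.p6), which is not the files' build and served for names and the promoter sequences. GENCODE gave exon and coding lengths.

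Genes were filtered with edgeR's filterByExpr (minimum count 10; 14136 kept), scaled by TMM and compared with the robust quasi-likelihood F test without covariates. Genes with a Benjamini-Hochberg adjusted p under 0.05 are called. Standard errors were computed from each fold change and F statistic, and 95% intervals from the t distribution with the moderated degrees of freedom. In all, 447 genes were higher and 468 lower in AE3-null hearts; with scaling by total counts only, 528 were higher and 361 lower.

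The genes, lists and naming rule were chosen with earlier results of these data known. Named were the 7 genes, Slc4a3 and up to 4 called genes of each list, or 2 by smallest p where none was called; some genes of the sodium pump list are not reported here. The rule also asked for the genes of closest profile to each called gene among the 7, and there was none. Between libraries of a genotype the chi-square per gene was 2.57 to 7.63, and no library was a copy of another. Versions were edgeR 4.0.16, DESeq2 1.42.0 and limma 3.58.1, run in R 4.3.3.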

Additional observations from a re-analysis of the deposited data

Results flagged for a closer look

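A single library stood apart from the other 3 of its genotype by Dixon's criterion for the gap to its nearest neighbour in 4 of the 40 groups of 4 libraries examined. Chance flags about 1 in 20 groups. Atp1b1 was at 497 CPM in wild-type replicate 2, against 440 to 444 CPM in the other wild-type libraries. Atp2b4 was at 57.4 CPM in AE3-null replicate 3, against 51.5 to 52.3 CPM in the other AE3-null libraries. Prkca was at 54.0 CPM in AE3-null replicate 3, against 48.0 to 48.6 CPM in the others. Ank2 was at 162 CPM in wild-type replicate 3, against 155 to 156 CPM in the others.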

How the results depend on the processing

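The count of 0 called among the 7 pump and exchanger genes held under all 18 alternatives, and so did the call of Slc4a3. An adjusted p under 0.1, which is 1 of the 18, reads the same fit again and could not end a call. Over all genes 915 were called, 1546 at an adjusted p under 0.1, and between 407 and 1727 with single libraries left out (581, 569 and 407 without AE3-null replicates 1, 3 and 4, and 1727 and 431 without wild-type replicates 3 and 4). In a fit blocked by replicate number 1002 genes and 0 of the 7 were called. The labels do not say whether the numbers pair the libraries. Correlations of same-numbered deviations were 0.162, -0.0397, 0.0154 and -0.00282, and such values cannot decide it. The block ended the call of Ank2 and of no other named gene. Without scaling by length, Atp1b1, Atp1b2 and Atp1b3 made up 83.1%, 4.998% and 11.9% of the beta subunits in AE3-null hearts, which follows from their different lengths. With single libraries left out, the sign turned for Atp2b1 (range -0.045 to 0.0085, positive without AE3-null replicate 3) and Atp2b4 (-0.011 to 0.050, negative without AE3-null replicate 3). Prkaca was called at an adjusted p under 0.1. Atp2b3 did not pass the stricter filter, and Pln, as an abundant gene, had no value without the 10 most abundant genes.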
